A study of Mus musculus with 2 samples.

Results

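Genes encoding translation initiation factors, 53 of the 12432 genes in the deposited table, were examined in single CD4 T cells. They were chosen by name, as every gene whose mouse symbol begins with Eif and a digit. The Y-linked Eif2s3y and the processed copies Eif3s6-ps2, Eif1-ps1 and Eif5al3-ps, 4 genes in all, were left out. The family drew attention because Eif2s2 was lower in cells with more Klf2 in these same data, so the Klf2 values chose the members and every value set against Klf2 below is a description with no test. The cells were CD4 T cells that recognise the peptide 2W1S, isolated from the spleen and the peripheral lymph nodes. The mice were C57BL/6 and had been colonized with the yeast Candida albicans carrying the peptide. They were captured on a Fluidigm C1 instrument, and SMART-Seq v4 libraries, which read whole transcripts and carry no molecular identifiers, were made from each cell. There were 178 cells, 82 from a sample labelled March and 96 from a sample labelled April. Each sample is called a capture here, although the labels give the month only. The column names divide the cells further into Mar1 (25 cells), Mar17 (57), Apr13 (48) and Apr21 (48). These are called runs here, and the labels do not describe them. All cells belong to 1 group of colonized mice, and no uncolonized group was analysed here. The labels do not say how many mice were pooled, so the spread between the 2 captures, and any p-value built on it, may be technical.

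Initiation factors bring the small ribosomal subunit, the initiator tRNA and a messenger RNA together. The eIF2 complex, made of alpha, beta and gamma subunits, carries the initiator tRNA in its GTP-bound form; eIF2B reloads it with GTP, and stress-activated kinases phosphorylate its alpha subunit and slow initiation. The large eIF3 complex binds the small subunit, and the eIF4 factors recognise the cap and unwind the start of the message. T cells raise protein synthesis when they leave quiescence. KLF2 is a transcription factor of quiescent, recirculating T cells, and stathmin, encoded by Stmn1, is a tubulin-binding protein abundant in dividing cells.

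Start regions of the eIF2 genes are shown first, because Eif2s2 is the member through which the family was noticed, together with Eif3f, which shares a feature with Eif2s3x. A start that opens with C and continues in pyrimidines is the feature known as a terminal oligopyrimidine tract, through which mTOR signalling controls many translation genes. Each sequence runs 5′ to 3′ on the gene's strand over 50 bases, from 20 before to 30 after the start annotated by RefSeq on GRCm38.p6, and capitals mark the pyrimidine run. Eif2s1 lies at chr12:78862052-78862101 on the plus strand, Eif2s2 at chr2:154892877-154892926 on the minus strand, Eif2s3x at chrX:94212622-94212671 on the minus strand and Eif3f at chr7:108934395-108934444 on the plus strand.
Eif2s1: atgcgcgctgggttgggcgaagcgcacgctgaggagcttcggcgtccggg
Eif2s2: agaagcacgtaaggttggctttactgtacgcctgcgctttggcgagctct
Eif2s3x: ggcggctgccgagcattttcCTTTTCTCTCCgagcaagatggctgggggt
Eif3f: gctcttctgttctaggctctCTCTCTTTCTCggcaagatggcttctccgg
Both runs were 11 bases long. Among the 55 promoters matched for 42 of the 53 members, these were the 2 (3.64%) with a C at the start and at least 4 pyrimidines after it, against 2.51% of 32851 promoters of the table.

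Short motifs were searched on both strands of the 300-base promoters, and a match describes the letters and no binding. The ETS motif CCGGAAG, a sequence type common in housekeeping promoters, was in 19 member promoters (34.5%) of 16 genes and in 8.86% of all promoters. The E-box CACGTG was in 12 (21.8%) of 10 genes against 7.15% of all. AAGATGGC, the YY1 motif, was in 7.27% against 2.75%, and GCATGCGC, the NRF1 motif, in 5.45% against 2.71%. TATAAA was in 5.45% against 13.6%, and the CRE motif TGACGTCA was in 0 member promoters and in 1.79% of all. Promoters of 1 gene can overlap, so these shares are not over independent sequences. The 3 windows below carry the ETS motif, in capitals, within 30 bases after the start. They are examples, and windows of Eif1ad, Eif2ak1 and Eif4enif1 also carried it there, on the opposite strand. The 3 shown belong to subunits of eIF2B and to the cap-binding protein gene Eif4e2. They lie at chr12:85219461-85219510 (plus), chr5:31193110-31193159 (minus) and chr1:87213891-87213940 (plus).
Eif2b2: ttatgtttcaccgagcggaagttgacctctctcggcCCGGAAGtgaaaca
Eif2b4: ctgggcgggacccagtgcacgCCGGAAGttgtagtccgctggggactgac
Eif4e2: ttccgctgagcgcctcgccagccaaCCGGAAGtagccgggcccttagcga

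Levels were taken as the mean over cells of log2(value + 1), zeros included, within each capture, and then over the 2 captures. Low values were smaller for genes of greater exon length across 12163 genes (Spearman rho -0.618, a correlation across genes, which are not independent), so the values were read as a per-length scale on which genes can be compared. Read depth per cell is unknown. Over the 4 runs, cells had a median of 4859 to 5491 genes detected, and 3 cells of Mar1 gave over 50% of their signal to mitochondrial genes. The T cell genes Cd3d, Cd3g, Trbc2 and Lck were above 0 in 100% of cells and Cd4 in 91.0%, while the CD8 T cell genes Cd8a and Cd8b1 were above 0 in 8.99% and 27.0%. Of the 17 listed B cell, myeloid and NK markers, 5 were in the table: the B cell genes Ebf1 and Pax5 were above 0 in 99.4% and 28.1% of cells, the myeloid genes Itgam and Csf1r in 77.0% and 14.6%, and the NK gene Klrb1c in 8.43%. Mean levels of these 5 were 1.87, 0.44, 1.01, 0.21 and 0.24, and their part in the members' values was not tested.

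As a family the initiation factors were well expressed. The median member stood at 2.05 on the log2 scale against 0.75 for all 12432 genes, and it was above 0 in 65.7% of cells against 34.3%. Of the members, 11 (20.8%) were above 0 in at least 90% of cells, compared with 8.15% of all genes. A cell had a median of 32 members above 0, with a range of 19 to 46. That number followed the number of genes detected over the cells of each run, which may share a library preparation. The rho was 0.65 in Mar1, 0.53 in Mar17, 0.50 in Apr13 and 0.51 in Apr21.

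**Figure D1:**
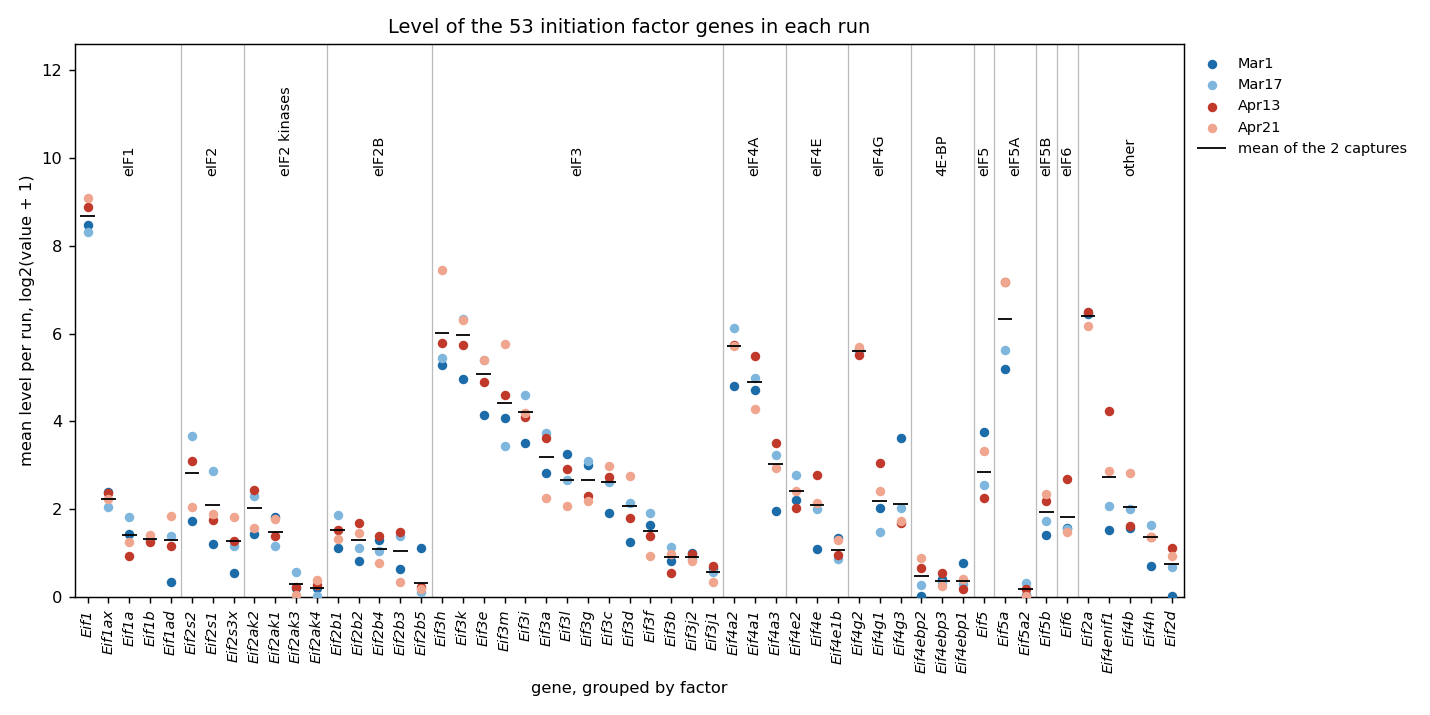
Mean level of each of the 53 genes in the runs Mar1, Mar17, Apr13 and Apr21 (points), grouped by factor, with the mean of the 2 captures as a bar; the vertical axis is log2(value + 1). Eif1 is highest at 8.68, Eif5a2 lowest at 0.17, and the 4 points of Eif5a separate by month.

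The eIF1 group, which acts in start-codon selection, held the highest member and others of lower level, with a group median of 1.40. Eif1, whose product scans for the start codon, had the highest level of the family, 8.68 ± 0.45 (SD, n = 2 captures), with 8.36 in March and 8.99 in April, and it was above 0 in 98.9% of cells. Stretches near-identical to parts of an Eif1 transcript lie in 13 other annotated genes, the longest being 662 of 1322 bases in Emd. They could take or give reads, so the level of Eif1 is uncertain. Eif1ad, a related gene, was the lowest of the eIF1 group at 1.29 ± 0.31 (SD, n = 2). The pair Eif1a and Eif1ax, which encode versions of eIF1A, stood at 1.40 ± 0.43 and 2.22 ± 0.10.

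The 3 eIF2 subunit genes were of middle level and were absent from many cells. Eif2s2, the beta subunit (ENSMUSG00000074656, chr2:154871410-154892935, minus strand, GENCODE on mm10), had a mean of 3.07 in March and 2.56 in April. Its run means were 1.73 in Mar1, 3.66 in Mar17, 3.09 in Apr13 and 2.04 in Apr21. It ranged from 0 to 9.82 over cells, with a median of 1.74. It was above 0 in 122 of 178 cells, 68.5% (95% Clopper-Pearson interval 61.2 to 75.3%, counting error only). In each month the Eif2s2 means of its 2 runs were further apart than the means of the 2 captures.

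Eif2s1, the alpha subunit that the stress kinases phosphorylate (ENSMUSG00000021116, chr12:78861819-78887010, plus strand), averaged 2.36 in March and 1.81 in April and was above 0 in 65.2% of cells. Its run means were 1.21, 2.86, 1.74 and 1.88 in the order Mar1, Mar17, Apr13, Apr21. Eif2s3x, the X-linked gamma subunit (ENSMUSG00000035150, chrX:94188707-94212862, minus strand), averaged 0.98 in March and 1.55 in April and was above 0 in 55.1% of cells. Eif2s2 was highest of the 3 in each of the 4 runs, and Eif2s3x lowest, although in Apr21 the means were close, at 2.04, 1.88 and 1.81. All 3 were above 0 in 44 cells (24.7%, interval 18.6 to 31.7%) and none in 8. Each of the 3 has a near-identical copy: Gm9892 matches 992 bases of an Eif2s2 transcript at 99.5%, and Gm2223 matches 1350 bases of Eif2s3x at 100%.

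Among the regulators of eIF2, the kinase gene Eif2ak2, which encodes the double-stranded RNA sensor PKR, was highest at 2.01 ± 0.02 (SD, n = 2). It was above 0 in 70.8% of cells. Its run means were 1.43, 2.29, 2.43 and 1.57 in the order Mar1, Mar17, Apr13, Apr21. The kinase gene Eif2ak1 averaged 1.81, 1.16, 1.39 and 1.78, so it was higher than Eif2ak2 in Mar1 and Apr21. Eif2ak1 was above 0 in 73.0% of cells. Eif2ak4, which encodes the amino acid sensor GCN2, was lowest at 0.20 ± 0.18 and above 0 in 10.1%. The 5 eIF2B genes had a median of 1.10, from Eif2b1 at 1.53 ± 0.15 to Eif2b5 at 0.31 ± 0.16. Eif2b5, the catalytic subunit, was above 0 in 14.0% of cells, and its mean in Mar1, 1.12, was far above 0.11 to 0.22 in the other runs.

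Genes for eIF3, whose subunits assemble into 1 complex, spanned a wide range of RNA level. The 14 genes had a median of 2.66, from Eif3h at 6.01 ± 0.87 (SD, n = 2) to Eif3j1 at 0.56 ± 0.05. Eif3h averaged 5.28, 5.44, 5.80 and 7.44 in Mar1, Mar17, Apr13 and Apr21, so both April runs were above both March runs. Of the other eIF3 genes, 5 lay above 3, and they are named here after their values were seen: Eif3k at 5.97, Eif3e at 5.08, Eif3m at 4.41, Eif3i at 4.20 and Eif3a at 3.20. Eif3m was the other subunit gene with a shift above 1 between captures, at 3.64 in March and 5.18 in April. The scaffold subunit gene Eif3a and the core subunit gene Eif3b stood far apart, at 3.20 and 0.90, and were above 0 in 89.9% and 38.8% of cells. A cell held a median of 10 of the 14 subunit genes above 0, with a range of 5 to 14, and all 14 were above 0 in 4 cells. Eif3j1 and Eif3j2 match each other at 99.4% over 2379 bases, so their separate levels are uncertain. Eif3d shares 43.3% of its exon bases with the antisense gene Gm17638, and without a stated strand setting the reads of the pair cannot be told apart.

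The eIF4 factors included genes whose captures nearly coincided. Eif4a2, an RNA helicase gene, led its group at 5.73 ± 0.01 (SD, n = 2), although Mar1 stood at 4.82 against 5.71 to 6.13 in the other runs. In the same group Eif4a3, which encodes a helicase of the exon junction complex, stood at 3.03 ± 0.27. Its run means were 1.95, 3.23, 3.50 and 2.94 in the order Mar1, Mar17, Apr13, Apr21. Eif4g2, which encodes a scaffold that does not bind eIF4E, averaged 5.64, 5.58, 5.51 and 5.69 over the 4 runs and was above 0 in 98.9% of cells. Eif4g3 had the lowest mean of the scaffold genes at 2.11 ± 0.57, within the spread of Eif4g1 at 2.19 ± 0.76. In March Eif4g3 was the higher of these, at 2.515 against 1.65, and in April the lower, at 1.71 against 2.72. Of the cap-binding proteins, Eif4e2 stood at 2.41 ± 0.27 and Eif4e1b at 1.06 ± 0.08. Eif4a1, Eif4e and Eif4g1, which encode the core of the cap-binding complex eIF4F, were all above 0 in 76 cells (42.7%, interval 35.3 to 50.3%).

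The 4E-BP genes, whose products block eIF4E, were low. Eif4ebp1 at 0.37 ± 0.10 (SD, n = 2) and Eif4ebp3 at 0.37 ± 0.04 did not differ beyond their spread, and Eif4ebp2 stood at 0.48 ± 0.41. Eif4ebp1 was above 0 in 14 cells (7.87%) and was the 1 member left out of the class tests, which needed 10% of cells. Eif4ebp3 shares 67.3% of its exon bases with a gene on the same strand, so its reads cannot be assigned with certainty.

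Factors that act late, at subunit joining and beyond, differed widely. Eif5a, whose hypusine-modified product helps ribosomes through difficult peptides, averaged 5.20 in Mar1, 5.62 in Mar17, 7.18 in Apr13 and 7.17 in Apr21. Both April run means lay above both March run means. April exceeded March by 1.69 in mean level, the largest shift of the 53 genes. In single cells Eif5a ranged from 0 to 11.81 in March and from 0 to 12.18 in April. Its relative Eif5a2 was the lowest member at 0.17 ± 0.10 (SD, n = 2). Eif5, the GTPase-activating partner of eIF2, stood at 2.85 ± 0.10. Eif5b, the subunit-joining GTPase, stood at 1.94 ± 0.45, and Eif6, which keeps the large subunit apart, at 1.82 ± 0.37. The run means of Eif5 lay further apart than its captures, at 3.76, 2.55, 2.25 and 3.31 in the order Mar1, Mar17, Apr13, Apr21. Over the 4 runs the SD was 0.69 for Eif5, 0.43 for Eif5b and 0.58 for Eif6. Eif4enif1, which encodes a transporter of eIF4E and was named after its values were seen, had the next largest shift after Eif5a. It stood at 1.90 in March and 3.55 in April. The labels separate the samples by month only, and month, capture and any difference between the mice cannot be told apart.

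Outside the complexes, Eif2a, which encodes a factor unrelated in structure to the eIF2 subunits, was above 0 in all 178 cells. Its lowest cell stood at 3.68 and its SD over cells was 1.17, compared with a median SD of 2.73 over members. Eif2d was the lowest of the unassigned factors at 0.75 ± 0.39 (SD, n = 2). Eif3i, named here after its values were seen, was above 0 in 99.4% of cells, yet 94 of 178 cells (52.8%) lay between 1 and 3 and 35 (19.7%) lay above 8. Eif2a and Eif3i thus had almost the same detection and very different spread.

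**Figure D2:**
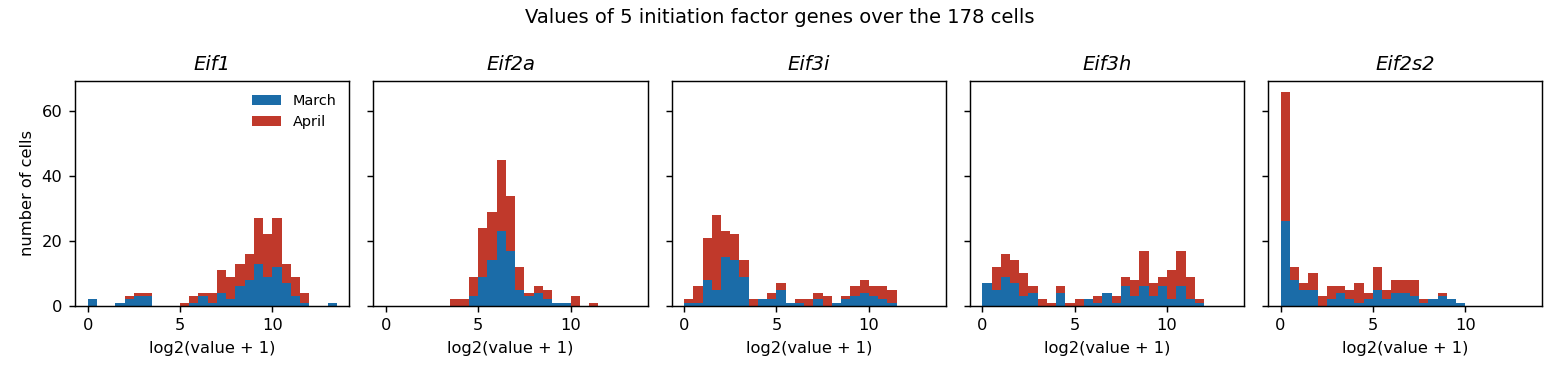
Histograms of log2(value + 1) over the 178 cells (bins of width 0.5, March and April stacked) for Eif1, Eif2a, Eif3i, Eif3h and Eif2s2; the vertical axis counts cells. Eif2a forms 1 narrow peak with an SD of 1.17, while Eif3i has a low band holding 94 cells between 1 and 3 and Eif2s2 has 56 cells at 0.

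Coordination was measured as Spearman rho between genes over the cells of each run, averaged over the 4 runs, for the 45 members above 0 in at least 25% of cells. The cells of a run may share their preparation and differ in depth, so no p is given. The 990 member pairs had a median rho of 0.04, with 67.3% positive, against 0.02 and 60.9% over the 29364616 pairs of all such genes. With the number of genes detected regressed out, the medians were 0.02 and 0.0053. Pairs of eIF3 subunits had a median of 0.07, with 66 of 78 (84.6%) positive, and the 3 pairs within eIF2 had a median of 0.02. Of the member pairs, 51 (5.15%) lay above 0.167, the 95th percentile of all pairs. These correlations are weak and the counts sparse, and no shared variation of the family can be read from them.

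The highest member pair was Eif1a and Eif1ax at a mean rho of 0.347, with 0.490, 0.283, 0.303 and 0.313 over Mar1, Mar17, Apr13 and Apr21. Both encode versions of eIF1A. Eif2s2 and Eif5a followed at 0.282 (0.132, 0.282, 0.260 and 0.454). Eif3l with Eif4a1 stood at 0.277, Eif2s1 with Eif4h at 0.277 and Eif3i with Eif4a3 at 0.276, and each of these 5 pairs was positive in every run. Within eIF2, Eif2s2 had a rho of 0.142 with Eif2s1 and -0.05 with Eif2s3x.

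Over the same cells, the genes most like Eif2s2 by mean rho among 7664 were Lrrc14b (0.302), Sltm (0.297), Ssb (0.296), Mrps33 (0.295) and a gene without a matched symbol, ENSMUSG00000079252 (0.293). Klf2 stood near the opposite end at -0.254, with -0.05 in Mar1, -0.36 in Mar17, -0.33 in Apr13 and -0.27 in Apr21. Stmn1 had a rho of 0.145 with Eif2s2, positive in all 4 runs.

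**Figure D3:**
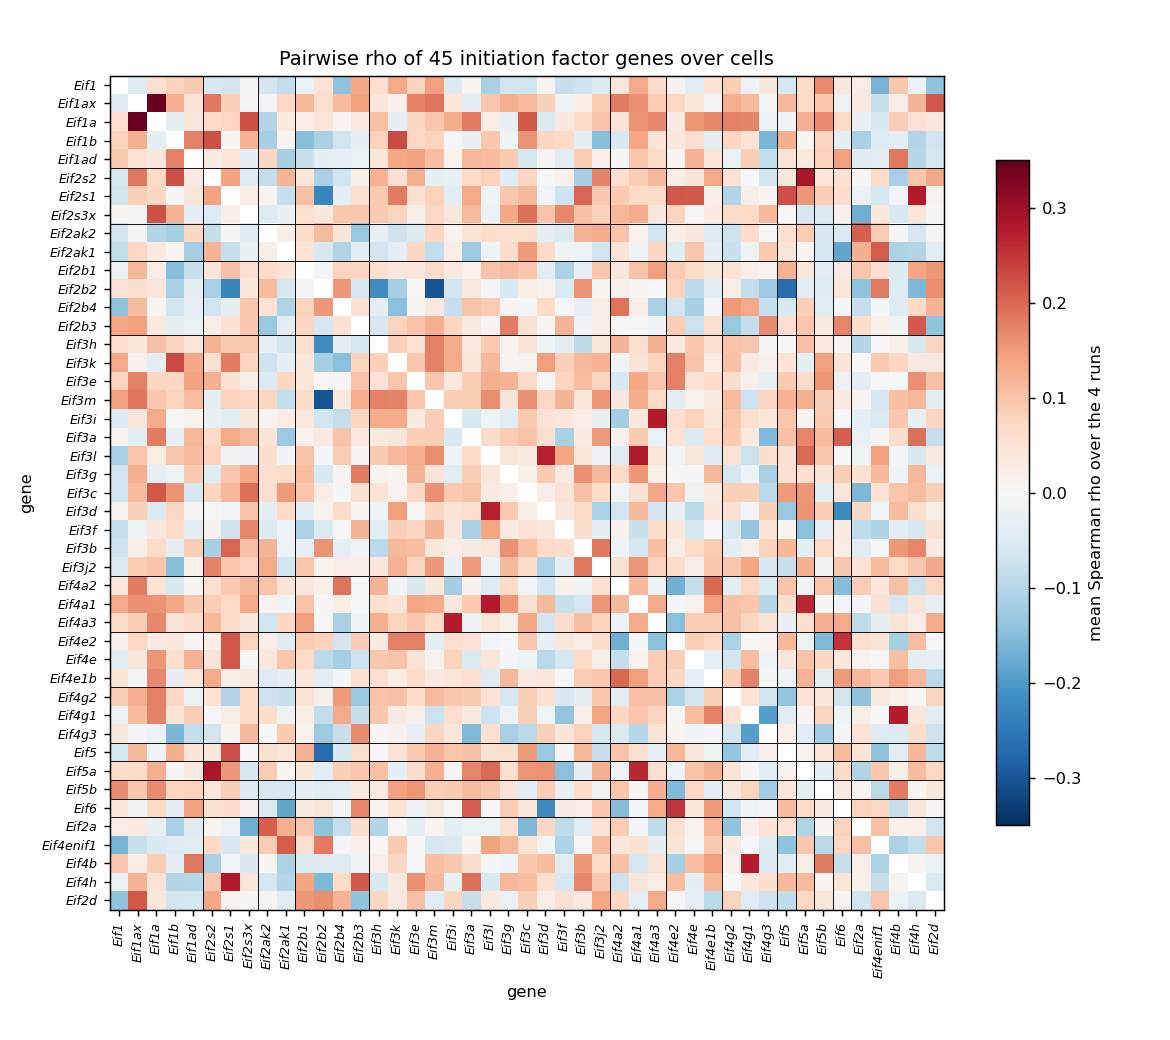
Mean Spearman rho over the 4 runs for each pair of the 45 members above 0 in at least 25% of cells, ordered by factor as in the plot of levels, with lines between factors and the diagonal left blank. Most squares are pale, the median being 0.04, and the darkest red square is Eif1a with Eif1ax at 0.347.

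Klf2 classes were formed within each capture from cells with Klf2 at 0 and cells with a linear value of at least 1, which is 1 on the log2 scale. March gave 39 cells without and 27 with Klf2, and April gave 50 and 26. Median genes detected were close between the classes, 5294 and 5305 in March and 4932 and 4997.5 in April. All 3 mostly mitochondrial cells had Klf2 at 0.

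In March, Eif2s2 ranged from 0 to 9.82 with a median of 3.84 in cells without Klf2 and from 0 to 8.11 with a median of 0.99 in cells with it. In April the ranges were 0 to 8.60 with a median of 3.53 and 0 to 7.28 with a median of 0.12. The classes overlapped widely in both captures, with the cells holding Klf2 shifted down. Mean Eif2s2 was 3.89 against 2.07 in March and 3.39 against 1.42 in April, differences of -1.83 and -1.97. This was the 2nd most negative mean difference among 10794 genes, the value it was noticed for. Eif2s2 reached a linear value of 1 in 61.5% against 48.1% of cells in March and in 74.0% against 26.9% in April.

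By run the difference of Eif2s2 was 0.03 in Mar1, -2.59 in Mar17, -2.04 in Apr13 and -1.75 in Apr21. In Mar1, with 12 and 11 cells, the means were thus nearly equal, while the Eif2s2 median was 0.82 without and 0 with Klf2 and the share of cells above 0 was 66.7% and 45.5%. Without Mar1 the difference was -2.28, and without the 3 mostly mitochondrial cells -2.03. Summing Eif2s2 with its copy Gm9892 gave -1.84 in March and -1.99 in April.

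The other eIF2 subunits did not follow Eif2s2. Eif2s1 differed by 0.63 in March and -0.20 in April, and from -2.03 to 1.70 over the 4 runs. Eif2s3x differed by -0.14 in March and 2.34 in April, where it averaged 0.82 without and 3.16 with Klf2. By run Eif2s3x differed by 1.17 in Mar1, -0.86 in Mar17, 1.76 in Apr13 and 2.82 in Apr21, so the March value joins runs of opposite sign. Differences between the subunits were not tested.

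**Figure D4:**
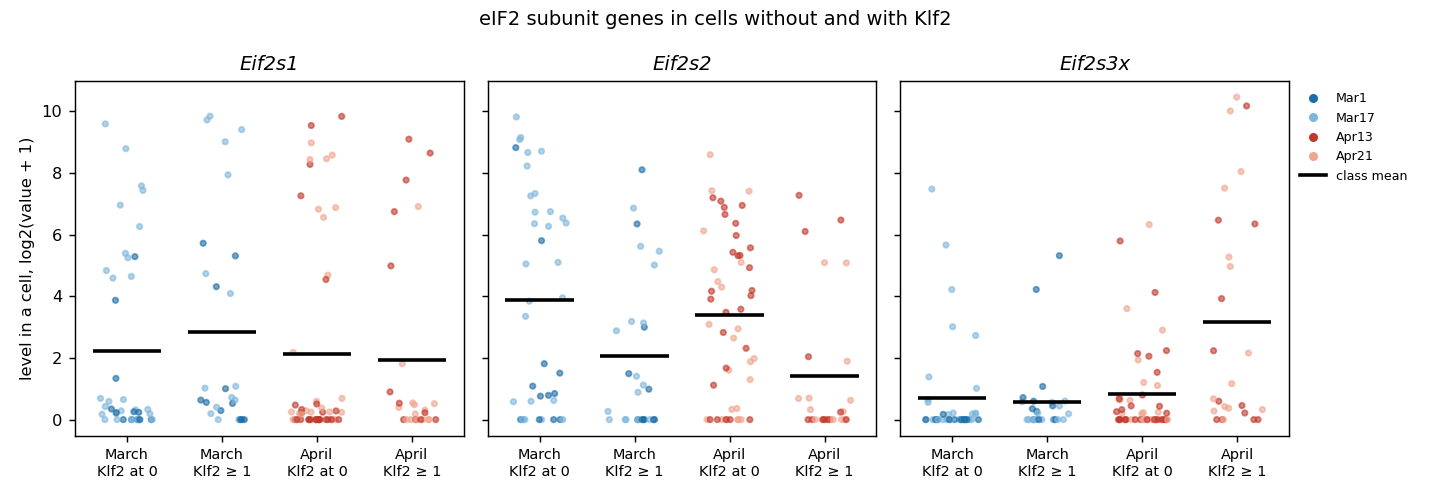
Level of Eif2s1, Eif2s2 and Eif2s3x in single cells, as log2(value + 1), in cells with Klf2 at 0 or with a linear Klf2 value of at least 1, by capture; points are cells coloured by run and bars are class means. The Eif2s2 means are 3.89 and 2.07 in March and 3.39 and 1.42 in April, while the Eif2s3x means are 0.71 and 0.58 in March and 0.82 and 3.16 in April.

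Across the 52 members that passed the filter, the median Klf2 difference was 0.04, against -0.03 over all genes. Of these, 10 (19.2%) were lower in both captures, against 29.3% of all genes, and 9 (17.3%) were higher in both, against 21.8%. The rule drew on this contrast and nothing is read from the counts. After Eif2s2, the most negative members were Eif1ax (-1.02 in March and -1.88 in April), Eif3l (-0.96 and -1.60) and Eif5a (-0.81 and -0.55). Eif1ax and Eif3l were lower in all 4 runs, whereas Eif5a was higher by 0.90 in Apr13. The most positive were Eif2s3x, Eif4e2 (1.23 and 0.91), Eif3g (0.60 and 0.94), which encodes an RNA-binding subunit, and Eif3c (0.76 and 0.73), a core subunit. Eif3g was higher in all 4 runs, whereas Eif4e2 differed by -0.82 in Apr21 and Eif3c by -0.27 in Mar1. Members of eIF3 thus lay at both ends.

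Stmn1 classes split each capture at a linear value of 1, giving 67 cells below and 15 at or above it in March and 67 and 29 in April. By run, the cells at or above it numbered 4 in Mar1, 11 in Mar17, 19 in Apr13 and 10 in Apr21. Of the 4 in Mar1, 1 was mostly mitochondrial, so Stmn1 differences in Mar1 rest on very few cells. Cells with Stmn1 had more genes detected, 5692 against 5175 in March and 5062 against 4899 in April. The 15 listed proliferation genes averaged 3.04 against 1.75 in March and 3.0 against 1.78 in April, and the part of depth or proliferation in the values below was not tested, other than by the regression given. limma was fitted over 10794 genes on the 4 means of capture and class, with the capture as a block.

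No member passed limma's adjusted p of 0.05 in either direction, against 0.0% of all genes, and 959 genes had an unadjusted p below 0.05. Of the 52 members, 3 (5.77%) were higher at an unadjusted p below 0.05, against 7.93% of all genes, and 0 were lower. In both captures 24 (46.2%) were higher, against 40.7%. The median member difference was 0.23 against 0.16 over all genes. With the number of genes detected regressed out, both medians were 0.02. From means of linear values the member median turned to -0.23 and that of all genes to -0.21. The members' shares were thus near those of all genes.

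Single members with the smallest p in limma were Eif6, Eif5a and Eif4h, a partner of the eIF4A helicase. Eif6 averaged 2.59 in Stmn1 cells and 1.33 in the others in March, and 3.60 and 1.43 in April. Its difference was 1.71 ± 0.46 (SE) with an adjusted p of 0.494 in limma, and it was below 0 in 1 run, Mar1, at -0.39. Eif5a averaged 7.70 against 5.0 in March and 7.81 against 6.90 in April, a difference of 1.80 ± 0.56 (SE) with an adjusted p of 0.495 in limma. Eif4h differed by 0.99 ± 0.40 (SE), adjusted p 0.540 in limma. In Mar1, with 4 cells in the Stmn1 class, both were negative, Eif5a at -0.30 and Eif4h at -0.77. With genes detected regressed out Eif5a stood at 1.05, Eif4h at 0.64 and Eif6 at 1.16, and from means of linear values at 0.64, 0.44 and 1.58. Single cells overlapped between the classes for all 3 genes.

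Further members of positive difference in order of p, none of which passed, were Eif3m, an eIF3 subunit gene (1.17 ± 0.54, SE), Eif2s2 (1.02 ± 0.49) and Eif4a1 (1.16 ± 0.56). In cells with Stmn1, Eif2s2 had a median of 5.05 in March and 3.91 in April, against 1.65 and 0.63 in the others. The Eif2s2 difference was 0.31 with the number of genes detected regressed out and 0.13 from means of linear values. By run it was -0.81 in Mar1, 1.85 in Mar17, 0.76 in Apr13 and 0.43 in Apr21. The Eif4a1 difference was 0.95 with the number of genes detected regressed out and turned to -0.14 from means of linear values. Those with the smallest p among negative differences were Eif2ak1, which encodes the haem-regulated eIF2 kinase (-0.88 ± 0.42), Eif2b2 (-0.50 ± 0.36) and Eif3f (-0.53 ± 0.39). The last is the gene with the pyrimidine start shown above.

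Positive mean Stmn1 differences were found for 38 of 52 members (73.1%), against 69.1% of all genes. The number was 27 of 52 with genes detected regressed out and 14 of 52 from means of linear values. All genes moved likewise, with medians of 0.02 and -0.21 in these settings, against 0.02 and -0.23 for members. By factor, 12 of 14 eIF3 genes had a positive mean Stmn1 difference, 8 of them in both captures, with a median of 0.36, where 40.7% of all genes were higher in both and the median of all genes was 0.16. In the run Mar1 Eif3a, Eif3b, Eif3e, Eif3f, Eif3g, Eif3j1 and Eif3j2 had negative differences and the other eIF3 genes positive ones. All 3 eIF2 genes were positive in both captures, with a median of 0.57. In the run Mar1, with 4 cells in the Stmn1 class and 21 below, all 3 were negative (Eif2s1 -1.17, Eif2s2 -0.81 and Eif2s3x -0.60). Eif2s1 was also negative in Apr13 at -0.41. Of the eIF4A, eIF4E and eIF4G genes, 2 of 3, 1 of 3 and 2 of 3 were positive. The eIF2 kinases had 2 of 4 positive and a median of -0.07.

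**Figure D5:**
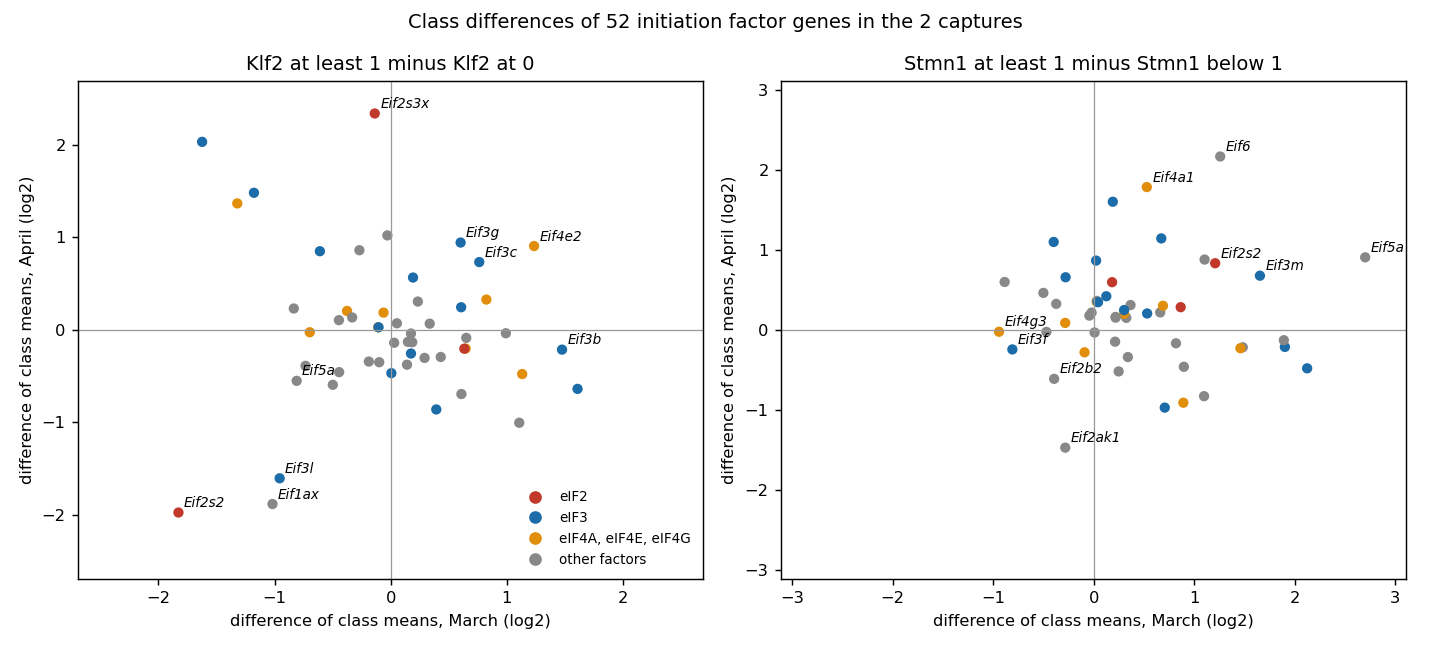
Differences of class means for 52 members, March on the horizontal and April on the vertical axis (log2), between Klf2 classes (left) and Stmn1 classes (right); points are genes coloured by factor, and the extremes are named. On the left Eif2s2 lies at -1.83 and -1.97 beside Eif1ax and Eif3l; on the right 24 genes fall to the upper right of both zero lines, with Eif6 at 1.26 and 2.17 and Eif5a at 2.70 and 0.91.

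Other genes of the translation pathway were read from a list of 47, of which 42 were in the table and 41 were tested. None of the 41 passed limma's adjusted p of 0.05 between Stmn1 classes. Of these, 34 (82.9%) had a positive difference, against 69.1% of all genes, and the list median was 0.23 against 0.16. The list was chosen with results of these data known, and nothing particular to it is read from the count. The 3 termination and recycling genes had a median of 1.05, among them Etf1, the release factor gene, at 1.05 ± 0.41 (SE; adjusted p 0.525 in limma). The 7 elongation genes had a median of 0.33, with Eef1e1 at 1.03 ± 0.34 and Eef1g, an elongation factor subunit gene, at 1.16 ± 0.49. Accessory initiation genes had a median of 0.35, led by Mcts1, a reinitiation factor gene, at 1.32 ± 0.47, and Cdc123, which encodes an assembly factor of eIF2, at 1.27 ± 0.48. The 11 mTOR and MNK signalling genes had a median of 0.23 and the 4 integrated stress response genes 0.06. In the Klf2 classes 21 of the 41 (51.2%) had a negative difference, against 54.5% of all genes, and the medians were both -0.03.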

How the data were processed

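The authors deposited log2 values per gene and cell. The submitters' processing notes name the build mm10, and for the aligner, counting program and strand setting nothing is given in the sources used here. Back-transformed sums per cell were 892206 to 979888, so the deposited log2 values were read as log2(value + 1) of TPM-like values (pseudocount 1). Of the gene identifiers, 12163 matched a symbol and 269 did not; 0 columns were unmapped. The members and gene lists were chosen with earlier results of these data known. Stmn1 classes were compared with limma 3.58.1 in R 4.3.3 (trend, two-sided, Benjamini-Hochberg over genes above 0 in at least 10% of cells) on means per capture and class, with 1 residual degree of freedom; the script was tested on simulated data. Both classes of a capture were cut from the cells of the same sample, hence the block. Named genes were the eIF2 subunits, the highest and lowest member of each factor, the smallest p between Stmn1 classes, the 4 extremes per direction between Klf2 classes, the 5 highest pairs and the 5 genes most like Eif2s2. Copies (at least 95% identity over 200 bases) were found with BLAST 2.17.0 for 16 members, and 21 members overlap exons of another gene. Promoters came from RefSeq on GRCm38.p6. No doublet caller was run. Alternatives were the block, runs as libraries, pseudocount, averaging, filters, scaling, depth, cells and class limits.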

Additional observations from a re-analysis of the deposited data

How the results depend on the processing

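The counts of members called between Stmn1 classes were 0 higher and 0 lower in limma under all 12 alternatives. These included the fit with no replicate block (0 and 0) and the 4 runs as libraries. Over all genes, 4 were called higher and 2 lower with genes detected regressed out, and 0 under every other alternative. At an unadjusted limma p below 0.05, between 1 and 5 members were higher and between 0 and 3 lower, of 45 to 53 tested. Over all genes, 739 to 1080 of 7663 to 12431 tested were below 0.05 in either direction. With 2 captures there is no test when 1 is left out. The median Stmn1 difference of members (0.23) was 0.10 with a pseudocount of 10, -0.23 from means of linear values, -0.0455 after quantile normalization, 0.022 with genes detected regressed out and 0.31 without the run Mar1. Over all genes the median Stmn1 difference (0.16) was 0.05, -0.21, -0.04, 0.02 and 0.16 in the same order. The median Klf2 difference of members (0.04) was -0.0625 to 0.0419 with 1 capture left out and -0.0759 without Mar1. For Eif2s2 between Klf2 classes (-1.90), the alternatives gave -1.02 (pseudocount of 10), -1.75 (quantile normalization), -1.76 (genes detected regressed out), -2.03 (without mostly mitochondrial cells), -2.28 (without Mar1), -1.64 (Klf2 above 0 against 0) and -1.54 (Klf2 of at least 1 against all other cells). Summing Eif2s2 with Gm9892, an alternative chosen after seeing the data, gave -1.91. The median pairwise rho (0.04) was 0.0127 after quantile normalization and 0.0199 with genes detected regressed out. The median level (2.05) was 4.17 with a pseudocount of 10, which raises every level by construction, and 1.84 to 2.08 with 1 capture left out. The cause of the other changes was not tested. The eIF3 rho moved less than the spread between captures under its 8 alternatives. Read depth is unknown, so a value of 0 cannot be told from a missed transcript.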
